A study of Drosophila melanogaster with 8 samples.

Results

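The experiment described here measured which transcripts of cultured Drosophila melanogaster cells changed within 1 hour of adding the cytokine Unpaired (upd). S2R+ is a macrophage-like line derived from embryos, and the cells of this experiment carried no engineered mutation (wild type). Its members are the 4 libraries, of 8 in the series, made from wild-type cells: 2 after 1 hour of upd and 2 after 1 hour of control media. The other 4 libraries came from S2R+ cells with a mutation in Stat92E. These cells were treated in the same way with upd (2 libraries) or control media (2 libraries). Their libraries enter where the wild-type response is set against theirs, and as part of the spread in fits of all 8 libraries. The deposited tables of the upd libraries carry the name conditioned buffer and those of the control libraries the name control buffer. The dose of upd is not given in the sources used here, nor whether the control media had been in contact with cells. The labels do not say that replicates 1 and 2 were separate cultures, and the tables number both libraries of a group under a single replicate. Most p-values below set a change with upd against how far such changes differed between pairs of same-numbered libraries. That spread was mostly a common trend over genes and not the gene's own. The spread between replicate numbers is taken out, except where a test without a block is named. The spread that remains may be technical.

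Upd is a ligand of the JAK/STAT pathway. It binds the receptor Domeless (dome), the receptor-bound kinase Hopscotch (hop) phosphorylates the transcription factor STAT92E, and STAT92E dimers enter the nucleus and raise transcription of their targets. One of these targets, Socs36E, encodes an inhibitor of the same pathway. In fly blood cells the pathway is known for its part in immune and stress responses and in the formation of several blood cell types.

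Replicate 1 was shallow and replicate 2 deep in both media. The upd libraries held 9142736 and 30352948 counts and the control libraries 8285533 and 28465332 counts. Of the 13932 genes in the tables, 7748 had enough reads to be tested. Expression of macrophage (plasmatocyte) genes was similar in both media, with a summed level of 9 markers of 152.6 and 258.5 RPKM with upd and 153.5 and 267.1 RPKM in control media. Col4a1, vkg, Pxn, crq and srp carried nearly all of that sum, whereas Hml stayed below 1 RPKM and NimC1, eater and He had between 0 and 6 counts in each library. Markers of other cells were absent in part. The germline list summed to 32.7 and 41.05 RPKM with upd and 34.8 and 41.6 RPKM in control media, mostly from bam and bgcn. The glial gene moody had 13.9 and 15.0 RPKM with upd and 13.7 and 18.5 RPKM in control media. Neuron markers summed to 4.77 and 3.67 RPKM with upd and 5.01 and 3.59 RPKM in control media. Over the 4 libraries, epithelium markers summed to between 3.39 and 5.26 RPKM and muscle markers to between 0.471 and 1.57 RPKM. Of 5 crystal cell markers PPO1 had 0 counts in all 4 libraries, while the list's summed level was 3.91 and 3.84 RPKM with upd and 3.003 and 4.265 RPKM in control media, most of it from PPO2. Of 3 lamellocyte markers atilla had 0 counts, while PPO3 had 16.6 and 17.3 RPKM with upd and 15.7 and 16.0 RPKM in control media. Of 7 fat body markers Lsp1alpha, Lsp1beta, Fbp1 and Fbp2 had 0 counts, and the list summed to 1.32 and 0.774 RPKM with upd and 1.37 and 0.828 RPKM in control media, most of it from Lsp2. In such bulk libraries, fewer cells of a type and less RNA per cell cannot be told apart. Mitochondrially encoded transcripts took 22.07% and 12.84% of the counts with upd and 20.22% and 13.95% in control media, so that this share followed the replicate number more than the medium.

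More transcripts rose than fell after an hour of upd. Among the 7748 genes tested, 241 rose and 97 fell, which is 3.11% and 1.25% (edgeR's quasi-likelihood test on counts with the replicate number as a block, adjusted p under 0.05). Of these, 28 rose and 3 fell more than 2-fold, and the median log2 change was 0.44 among the rises and -0.40 among the falls, against -0.01 over all tested genes. The direction was the same in both pairs of libraries for 240 of the 241 rises and all 97 falls. In 170 of the 241 rises both upd libraries lay above both control libraries, and in 76 of the 97 falls both lay below. Such a separation was found in 11.6% of all tested genes in the upward direction and 12.8% in the downward direction. The calls were made on these same libraries, so agreement between the pairs is partly built into them.

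These counts rest on the block. Without it, the same edgeR test called 0 genes, with 128 at an unadjusted p under 0.05 (100 of them higher with upd), where 387.4 of 7748 would have such a p if none differed, and a smallest adjusted p of 0.0927. With 1 residual degree of freedom, edgeR gave every gene the spread of the common trend, so the standard errors (SE) of log2 changes below are not specific to a gene. They do not take in how far a gene's change differed between the pairs, and can understate its error. Adjusted p-values are therefore quoted from a second edgeR fit, which took in the 8 libraries and kept the block within each line. This second fit still drew mostly on the common trend, which weighed as 19.98 degrees of freedom against 2 residual ones. It can likewise understate the error of a gene. It called 99 rises and 12 falls in wild-type cells (1.22% and 0.148% of 8126 genes). In Stat92E mutant cells the same fit called more, 313 rises and 154 falls (3.85% and 1.9%), also with more rises than falls. For wild-type cells, DESeq2 with the block called 85 rises and 9 falls (1.1% and 0.116%). Of the genes called, 79 rises and 6 falls were shared by all 3 fits. In the text, a gene is said to have risen or fallen where it passed in the first of these fits, and those that did not pass in the 8-library fit are pointed out.

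**Figure D1:**
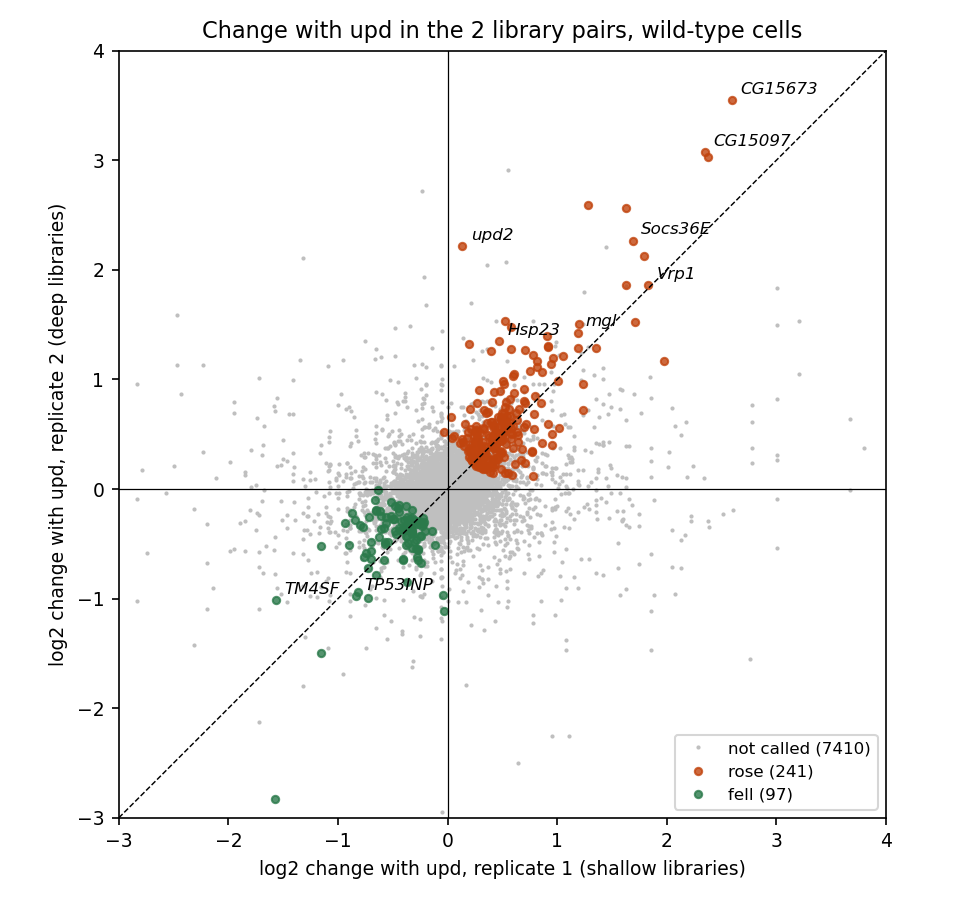
Log2 change with upd over control media in replicate 1 (x axis, shallow libraries) against replicate 2 (y axis, deep libraries), with 1 point per tested gene. Orange points are the 241 genes that rose, green points the 97 that fell and grey points the 7410 not called; the dashed line marks equal changes, and upd2 stands out with a change of 0.13 in replicate 1 and 2.22 in replicate 2.

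Socs36E, the feedback inhibitor of the pathway, was among the largest rises of abundant transcripts. Its level was 913 and 993 CPM (counts scaled to library size) in upd libraries 1 and 2, against 283 and 206 CPM in control libraries 1 and 2. The groups lay far apart, and the log2 change was 1.99 ± 0.08 (SE, n = 2 per group), with 1.69 in the shallow pair and 2.27 in the deep pair. The edgeR adjusted p was 1.46e-09 in the 8-library fit, where the SE was 0.13. Ranked by RPKM, a count scaled also to gene length, Socs36E was the 335th and 315th most abundant gene with upd and the 1032nd and 1367th in control media. The gene lies on chromosome arm 2L, at 18138675 to 18152417 on dm6, minus strand.

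The receptor, kinase and transcription factor genes of the pathway did not pass the test. Stat92E (chromosome arm 3R, 20535323 to 20552311, minus strand) had 155 and 158 CPM with upd and 159 and 176 CPM in control media, a log2 difference of -0.10 ± 0.08. The receptor gene dome had 75.3 and 85.6 CPM with upd and 77.4 and 70.6 CPM in control media. The kinase gene hop had 15.3 and 14.05 CPM with upd and 13.6 and 17.8 CPM in control media. For dome and hop the ranges of the media overlapped. Of 16 pathway genes, 15 were tested, and 3 of them rose (Socs36E, upd2 and asrij) and 0 fell, with a list median of 0.14. Over all tested genes 3.11% rose and 1.25% fell. The endosomal regulator gene asrij rose by 0.32 and did not pass in the 8-library fit. Other inhibitors of the pathway did not pass in any fit with the block: the log2 change was 0.23 for the phosphatase gene Ptp61F, 0.22 for Socs16D and -0.10 for Socs44A.

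The pathway's own ligands had low levels. The upd1 gene had 0 and 0 counts with upd and 1 and 0 counts in control media. The related ligand gene upd2 had 10.1 and 8.56 CPM with upd, against 9.24 and 1.76 CPM in control media. Only the deep control library stood apart from the other 3: the log2 change of 1.27 ± 0.24 came from the deep pair (2.22) and not from the shallow one (0.13), and it did not pass in the 8-library fit (edgeR adjusted p = 0.193). The third ligand gene, upd3, had 24.1 and 19.2 CPM with upd and 27.1 and 12.7 CPM in control media, with a log2 change of 0.27 that did not pass.

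JAK/STAT targets known from other tissues rose in part. Of 22 such genes, 11 had enough reads to be tested, and 6 of these rose and 0 fell, with a median log2 change of 0.30. The shares over all tested genes were 3.11% rises and 1.25% falls. After Socs36E, the largest rise was that of lama (0.93 ± 0.09), with 151 and 185 CPM with upd and 89.2 and 87.7 CPM in control media. Its exons overlap those of CG46456 on the same strand over 87.6% of their length, so their reads cannot be told apart here. The matrix metalloprotease gene Mmp1 rose by 0.70, the thioester protein gene Tep2 by 0.56 and the caspase inhibitor gene Diap1 by 0.41. The zinc-finger transcription factor gene zfh1 rose by 0.30 and did not pass in the 8-library fit. Diap1 had 405 and 347 CPM with upd and 306 and 260 CPM in control media, and its change was 0.41 in each pair. An antisense gene lies opposite 11% of its exon length.

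Several known targets were undetected or did not pass at 1 hour. The stress peptide genes TotB, TotC, TotX and TotZ and the antimicrobial peptide gene Listericin had 0 counts in all 4 libraries. The limit that such a count allows, set at 3 counts, was 0.358 and 0.0947 CPM with upd and 0.374 and 0.0976 CPM in control media, and it covers counting error only. TotA and TotM stayed below 0.5 CPM in each library. The log2 change was 0.07 for the transcription factor gene chinmo, 0.22 for the virus-response gene vir-1 and -0.18 for Tep4, and none of the 3 passed. With vir-1, both upd libraries (957 and 993 CPM) nevertheless lay above both control libraries (832 and 839 CPM).

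**Figure D2:**
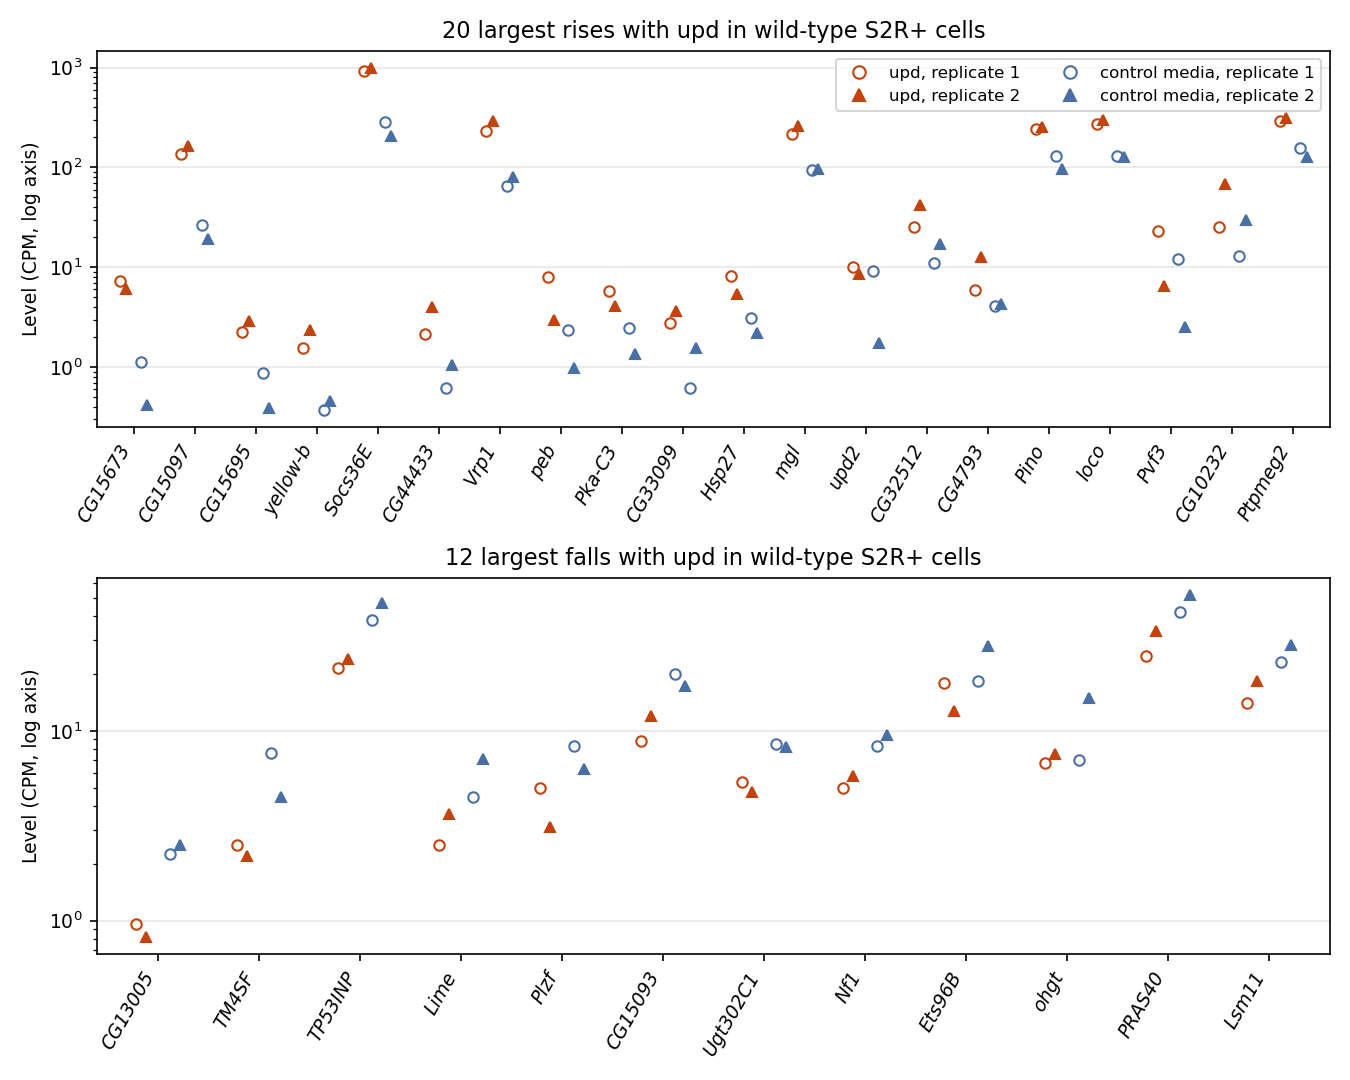
Levels in CPM (log axis) of the 20 largest rises (top) and 12 largest falls (bottom) with at least 100 counts, in the 4 wild-type libraries; orange marks upd and blue control media, open circles replicate 1 and filled triangles replicate 2. Upd and control libraries do not overlap for 17 of the 20 rises and 11 of the 12 falls.

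The largest rise among genes with at least 100 counts belonged to the uncharacterised gene CG15673 (2R, 21608393 to 21613071, minus strand). It had 7.28 and 6.03 CPM with upd, against 1.12 and 0.423 CPM in control media, where the libraries held 9 and 13 counts. The log2 change was 3.39 ± 0.38 (edgeR adjusted p = 6.56e-05). CG15097, another uncharacterised gene of this arm (18822188 to 18829699, minus strand), was more abundant, with 137 and 163 CPM with upd and 26.8 and 19.2 CPM in control media. It rose by 2.78 ± 0.10, with 2.35 in the shallow pair and 3.08 in the deep pair. The SE was 0.20 in the 8-library fit.

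Vrp1, which encodes the fly WASp-interacting protein (verprolin) and acts in actin assembly and cell fusion, had 230 and 292 CPM with upd, against 64.5 and 80.4 CPM in control media. Its change was nearly the same in both pairs, 1.83 and 1.86, and 1.85 ± 0.09 in all (edgeR adjusted p = 8.3e-11). Of 30 actin and cytoskeleton regulators tested, 4 rose and 0 fell, with a median of 0.07, beside 3.11% rises and a median of -0.01 over all tested genes. The other 3 were the filamin gene cher (0.44), the actin gene Act5C (0.26) and the profilin gene chic (0.24), none of which passed in the 8-library fit. The log2 change was 0.19 for WASp, whose product binds that of Vrp1, and 0.04 and -0.03 for the Arp2/3 subunit genes Arp2 and Arp3, and none of these passed.

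Further large rises belonged to the abundant transcripts of mgl, loco, Ptpmeg2, Pino and foi. The endocytic receptor gene mgl (megalin, of the LDL receptor family) had 215 and 257 CPM with upd and 94.6 and 95.6 CPM in control media, a change of 1.32 ± 0.08. The regulator of G protein signalling loco had 273 and 297 CPM with upd and 131 and 128 CPM in control media (1.14 ± 0.08). Its exons overlap an antisense gene over 13.5% of their length. The protein tyrosine phosphatase gene Ptpmeg2 had 293 and 313 CPM with upd and 155 and 127 CPM in control media (1.12 ± 0.08). Pino had 245 and 255 CPM with upd and 130 and 96.9 CPM in control media (1.17 ± 0.08), and the zinc transporter gene foi had 958 and 784 CPM with upd and 499 and 355 CPM in control media (1.04 ± 0.08). In each of these 5 genes the upd libraries lay above the control libraries with a wide gap, and each passed in the 8-library fit, with edgeR adjusted p-values between 1.55e-08 for mgl and 3.4e-07 for Ptpmeg2 and Pino.

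Counts for the families of 3 of these genes stand beside 3.11% rises and 1.25% falls over all tested genes. Of 12 zinc transporter genes tested, foi was the 1 that rose, and the list median was -0.08. Of 10 scavenger, phagocytosis and lipoprotein receptor genes, mgl was the 1 that rose, with a list median of -0.12. Of 17 tyrosine and dual-specificity phosphatase genes, Ptpmeg2 and Mkp3 rose and stg fell, with a median of 0.09. The related gene Ptpmeg had a log2 change of -0.04.

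Among the remaining largest rises, CG32512 had 25.5 and 41.7 CPM with upd and 11.1 and 17.02 CPM in control media (1.26 ± 0.14). CG10232 had 25.2 and 68.9 CPM with upd and 12.9 and 30.03 CPM in control media, so the media overlapped while the change was near 1 in both pairs (0.96 and 1.19). Both passed in the 8-library fit. At lower levels, peb, which encodes the zinc-finger factor Hindsight, had 7.997 and 2.999 CPM with upd and 2.37 and 0.976 CPM in control media. It was 1 of 2 crystal cell markers with enough reads, and it did not pass in the 8-library fit (edgeR adjusted p = 0.0687). Nor did CG15695, yellow-b, CG44433, Pka-C3, CG33099 or CG4793, whose log2 changes lay between 1.25 for CG4793 and 2.34 for CG15695. Of the 20 largest rises 12 passed in the 8-library fit and 11 with DESeq2.

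Falls were smaller and less secure. The largest among genes with at least 100 counts were CG13005 (-1.48 ± 0.48) and the tetraspanin family gene TM4SF (-1.25 ± 0.30). TM4SF had 2.51 and 2.18 CPM with upd and 7.61 and 4.49 CPM in control media. Neither passed in the 8-library fit. TP53INP, the fly relative of a vertebrate p53-induced gene that acts in autophagy, had 21.5 and 23.9 CPM with upd and 38.4 and 47.2 CPM in control media. It fell by 0.93 on the log2 scale, with an edgeR adjusted p of 4.46e-04, and was lower with upd in both pairs (-0.84 and -0.98). PRAS40, a substrate and inhibitor of the growth kinase complex TORC1, had 24.8 and 33.7 CPM with upd and 42.1 and 51.9 CPM in control media (-0.68 ± 0.12, edgeR adjusted p = 0.00378). Lsm11, whose product belongs to the U7 particle that processes histone transcripts, had 14.1 and 18.2 CPM with upd and 23.0 and 28.3 CPM in control media (-0.66 ± 0.15).

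These were the 3 of the 12 largest falls that passed in the 8-library fit, and DESeq2 called 2 of the 12. The others were Lime, Plzf, CG15093, Ugt302C1, the Ras GTPase-activating gene Nf1, the ETS factor gene Ets96B and ohgt, with log2 changes between -0.92 and -0.68. Of these 7, ohgt overlapped between media: it had 6.80 and 7.51 CPM with upd and 6.99 and 14.8 CPM in control media. The exons of CG15093 overlap an antisense gene over 86.8% of their length, and those of Ets96B overlap Ude on the opposite strand over 15.4%.

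**Figure D3:**
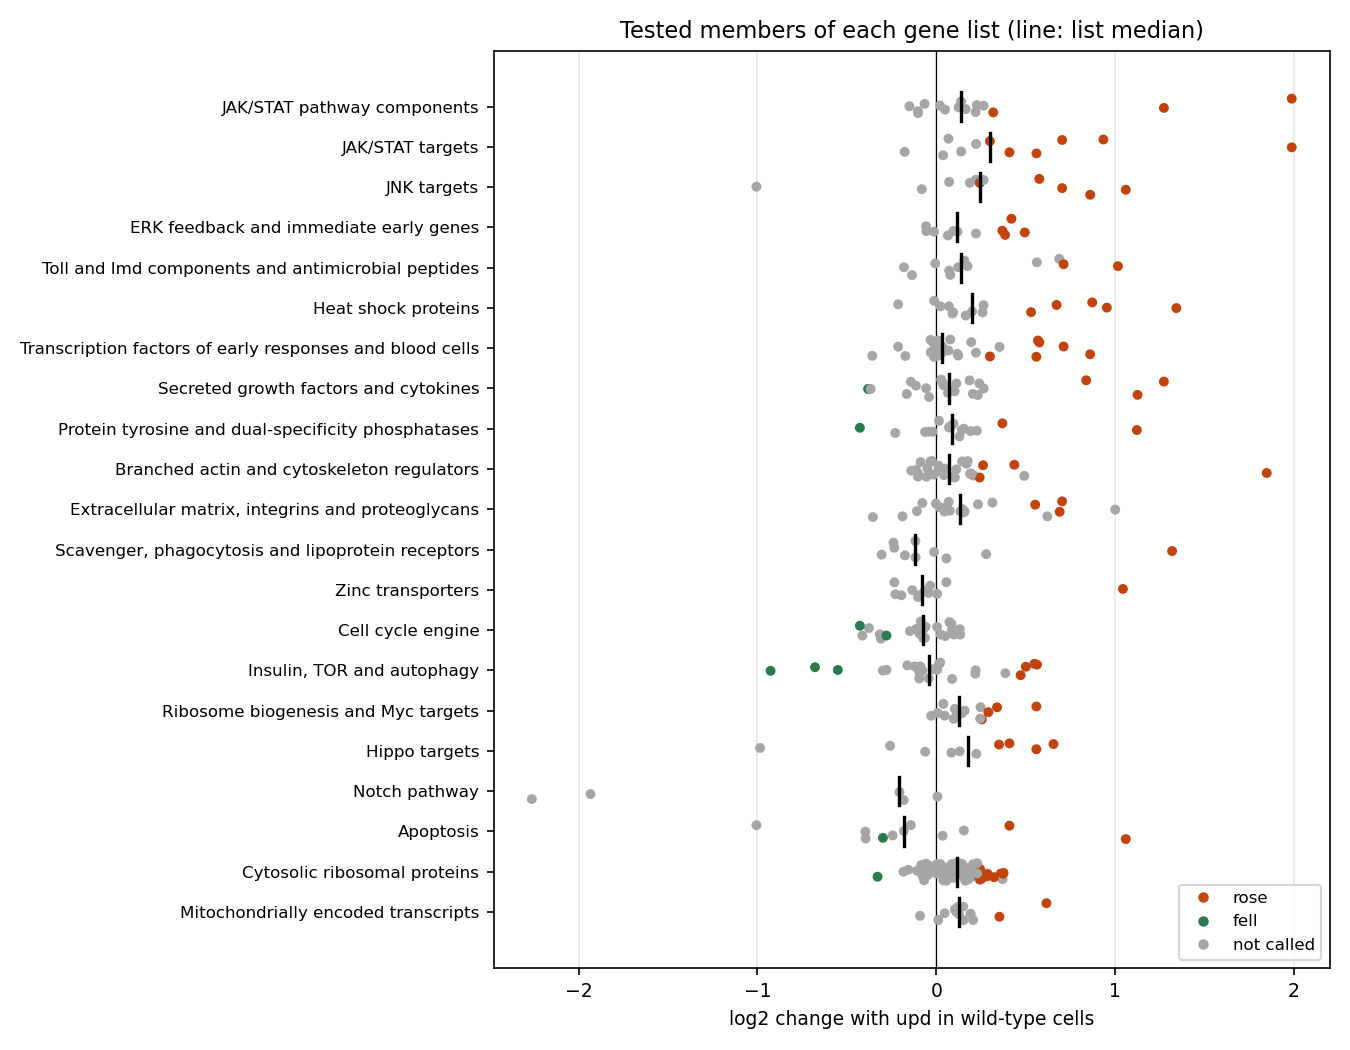
Log2 change with upd for the tested members of 21 gene lists (1 point per gene; vertical position within a row is scatter only). Orange points rose, green points fell, grey points were not called, and the black line is the list median, which lies between -0.21 for the Notch pathway and 0.30 for JAK/STAT targets.

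Stress and immune signalling lists held several rises and no fall. Beside these and all lists that follow stand 3.11% rises and 1.25% falls over all tested genes. At that share of falls, lists of this size would hold few or none. Of 11 JNK targets tested 5 rose, with a list median of 0.24. The death gene rpr had 10.4 and 12.8 CPM with upd and 5.87 and 5.63 CPM in control media (1.06 ± 0.21). The ETS factor gene Ets21C had 43.4 and 71.6 CPM with upd and 28.7 and 34.98 CPM in control media (0.86 ± 0.12), and 28.3% of its exon length lies opposite nAChRbeta3. Jra, the fly Jun, had 621 and 527 CPM with upd and 433 and 340 CPM in control media (0.58 ± 0.08). All 3 were above the control libraries in both upd libraries and passed in the 8-library fit. The JNK phosphatase gene puc, a standard readout of that pathway, had a log2 change of 0.07 and did not pass.

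Of 12 Toll and Imd genes tested, 2 rose. The Imd inhibitor gene pirk had 70.8 and 51.9 CPM with upd and 43.3 and 21.5 CPM in control media (1.02 ± 0.12), and the NF-kappaB factor gene dl had 103 and 97.8 CPM with upd and 69.3 and 55.3 CPM in control media (0.71 ± 0.10). Their upd libraries lay above their control libraries. The other 2 fly NF-kappaB genes had log2 changes of 0.12 (Dif) and 0.08 (Rel) and did not pass. The list median was 0.14.

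Heat shock genes rose in part: 5 of 15 tested, with a median of 0.20. Hsp27 had 8.12 and 5.46 CPM with upd and 3.12 and 2.18 CPM in control media (1.34 ± 0.29). Hsp23 had 44.8 and 9.28 CPM with upd and 32.2 and 3.58 CPM in control media (0.87 ± 0.16). Hsp26 had 55.5 and 21.4 CPM with upd and 38.3 and 12.3 CPM in control media (0.67 ± 0.13). For Hsp23 and Hsp26 the replicate 1 libraries were the highest in either medium, so the difference between replicates was larger than that between media. Hsp70Bc (0.95) and Hsp68 (0.53) did not pass in the 8-library fit. Hsp70Bc is 1 of several near-identical Hsp70 copies, and its value is uncertain. The constitutive chaperone genes Hsp83 (0.16), Hsc70-4 (0.09) and Hsp60A (0.07) did not pass.

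Growth signalling moved on both sides. Of 11 genes of ERK feedback and the immediate early response, 4 rose with a list median of 0.12: aos (0.50), sty (0.42), edl (0.39) and Mkp3 (0.37). They encode a secreted EGF receptor antagonist, the inhibitor Sprouty, an ETS antagonist and an ERK phosphatase. Of the 4, edl and Mkp3 did not pass in the 8-library fit. Among 22 secreted factors, the PDGF/VEGF-like ligand genes Pvf3 and Pvf2 rose with upd2, and the TGF-beta family ligand gene daw fell (-0.38) without passing in the 8-library fit. Pvf3 had 22.9 and 6.44 CPM with upd and 12.1 and 2.54 CPM in control media (1.13 ± 0.21). Pvf2 had 154 and 74.2 CPM with upd and 101 and 35.8 CPM in control media (0.84 ± 0.09). In both genes the media overlapped because replicate 1 lay above replicate 2 in each medium, while the change was upward in both pairs.

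Myc had 1415 and 635 CPM with upd and 1028 and 403 CPM in control media, again with replicate 1 above replicate 2, and rose by 0.56 ± 0.08 (edgeR adjusted p = 0.00125). It shares 40.9% of its exon length with the opposite-strand gene CG12535, which had a log2 change of 0.58. A non-coding gene on the same strand overlaps 20.3% of the exon length of Myc. Of 16 genes of ribosome biogenesis and Myc targets 3 others rose as well, by 0.26 to 0.34, and none of them passed in the 8-library fit. The list median was 0.13. Among 86 genes of cytosolic ribosomal proteins 12 rose and 1 fell, with a median of 0.11, and 1 of the 12, RpS18, passed in the 8-library fit. With all tested genes split into 4 equal groups by counts, 7.13% rose and 1.76% fell in the highest group. Whether the ribosomal protein genes differed from other genes of like depth was not tested. Their median change in Stat92E mutant cells was 0.34.

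Of 25 genes of insulin signalling, TOR and autophagy, 4 rose and 3 fell, with a median of -0.04. The rises were the TOR-inhibitor genes scyl (0.56) and chrb (0.47), the insulin antagonist gene ImpL2 (0.55) and the kinase gene S6k (0.50). ImpL2 had 1583 and 1367 CPM with upd and 1122 and 902 CPM in control media, and 61.9% of its exon length is shared with CG46460 on the same strand. The falls were TP53INP, PRAS40 and the sestrin gene Sesn (-0.55), which had 28.2 and 34.7 CPM with upd and 37.3 and 54.3 CPM in control media. Of these 7, chrb was the 1 that did not pass in the 8-library fit. Sesn shares 65.1% of its exon length with CG46429.

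Cell cycle genes showed 0 rises and 2 falls among 24 tested, with a list median of -0.07. The mitotic phosphatase gene stg (the fly Cdc25) had 150 and 137 CPM with upd and 181 and 202 CPM in control media (-0.43 ± 0.08, edgeR adjusted p = 0.0478). Myt1, which encodes an inhibitory kinase of Cdk1, fell by 0.28 and did not pass in the 8-library fit. Of the 24 genes, 12 were lower and 3 higher with upd in both pairs, against 2411 lower and 2284 higher of the 7748 tested.

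Of 10 Hippo targets 4 rose (ex, Myc, Diap1 and kibra), with a list median of 0.18, and kibra did not pass in the 8-library fit. The growth suppressor gene ex had 105 and 105 CPM with upd and 71.1 and 63.1 CPM in control media (0.66 ± 0.09). Of 11 apoptosis genes, rpr and Diap1, which act against each other, rose and Diap2 fell (-0.30), with a list median of -0.18, and Diap2 did not pass in the 8-library fit. Of 21 genes of extracellular matrix, integrins and proteoglycans, Mmp1, the glypican gene dally (0.69) and the integrin gene mew (0.55) rose, with a median of 0.14, and Mmp1 alone passed in the 8-library fit. Of 28 transcription factors of early responses and blood cells 6 rose, with a median of 0.03: Ets21C, dl, Jra, ush, Myc and zfh1. The GATA partner gene ush rose by 0.57. Of 15 Notch pathway genes 5 were tested (the receptor gene N, the ligand gene Ser and 3 genes of the E(spl) complex), and 0 of them passed, with a median of -0.21.

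Of 13 mitochondrially encoded transcripts 2 rose, mt:ND4L (0.62) and mt:ND6 (0.35), with a list median of 0.13, and mt:ND6 did not pass in the 8-library fit. The list median was 0.31 in the shallow pair and -0.05 in the deep pair. The summed mitochondrial share differed between media in opposite directions in the 2 pairs, and its part in the other results was not tested.

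Among the called genes, the 2 pairs gave changes of like size. The calls were made on these same pairs, which favours such agreement. The median change of the 241 rises was 0.43 in the shallow pair and 0.48 in the deep pair, and that of the 97 falls -0.42 and -0.37. Over the 6781 genes with a mean of at least 50 counts, the changes of the 2 pairs correlated with r = 0.378. Over all 7748 tested genes r was 0.244. Both values are a description across genes of 4 libraries and not over replicates. Taken alone against the spread of the mutant libraries, the shallow pair called 20 of the 241 rises and the deep pair 54, with 17 called in both. Of the 97 falls, 4 were called in the shallow pair, 2 in the deep pair and 0 in both. Calls followed the depth of a gene. With the tested genes split into 4 equal groups by counts, 1.03% rose in the lowest group, with a median log2 change of 1.31, and 7.13% rose in the highest, with a median of 0.35. The shares that fell were 0.361% and 1.76%. Small changes could therefore be called in abundant transcripts and not in scarce ones.

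**Figure D4:**
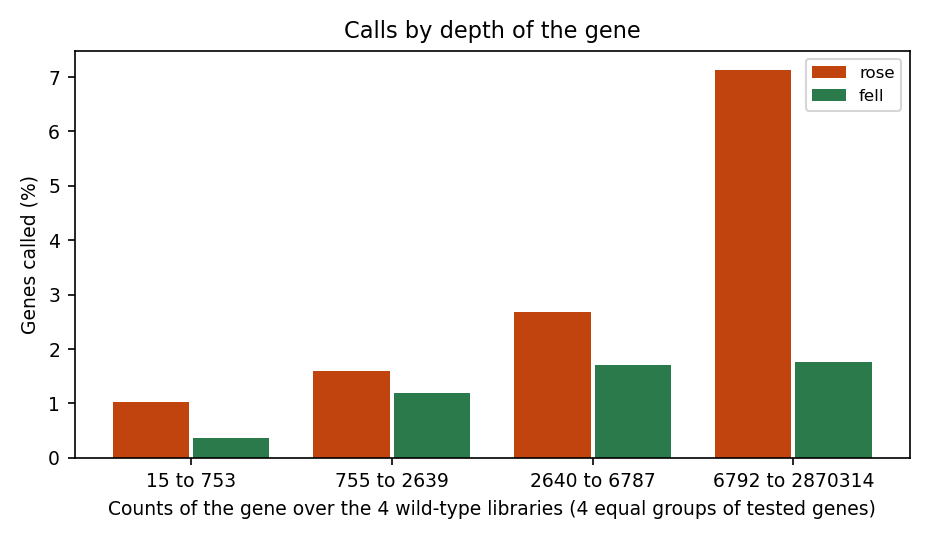
Percentage of tested genes that rose (orange) or fell (green) with upd, in 4 equal groups of genes ordered by their total counts over the 4 wild-type libraries. The share of rises is 1.03% in the lowest group and 7.13% in the highest.

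By their medians, the genes that rose were longer and more abundant than tested genes in general. The median span on the genome was 6010 bases for rises, 3859 bases for falls and 2780 bases for all tested genes, and the median level in control media was 26.4, 24.7 and 12.9 RPKM in the same order. The median number of exons was 4 in each group. Spans over 50 kb made up 5.86% of the rises and 2.56% of all tested genes. These figures were not adjusted for the depth of the genes. Between 2.60% and 3.76% of tested genes rose on each of the chromosome arms 2L, 2R, 3L, 3R and X. Of 71 tested genes on chromosome 4, 0 rose and 5 fell.

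Some rises were neighbours. Of the 239 rises with a position, 26 (10.9%) had another rise as the next tested gene, and 6.07% of all tested genes had a rise as such a neighbour. None of the 14 adjacent pairs overlapped. They included Pvf2 and Pvf3 on 2L, a run of Hsp26, Hsp23, Hsp27 and CG4080 on 3L, CG15673 with CG10433 on 2R and mgl with CG32700 on X. CG32700 (9502826 to 9550838, minus strand) lies on the strand of mgl and ends 2696 bases before mgl begins. It had 271 and 325 CPM with upd and 181 and 117 CPM in control media, with a log2 change of 1.06 ± 0.08. CG10433, which begins 267 bases past the end of CG15673 on the same strand, had 47.9 and 72.5 CPM with upd and 25.3 and 48.2 CPM in control media (0.72 ± 0.11), and 20.8% of its exon length lies opposite an antisense gene. Whether the 2 genes of a pair are separate transcripts was not tested.

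The response of wild-type cells was then set against that of cells with mutated Stat92E. The test of the difference itself (an interaction term in the 8-library edgeR fit) passed for 33 of 8126 genes, 23 with a more positive (0.283%) and 10 with a more negative (0.123%) change in wild-type cells. These counts turn on single pairs: they were 265 and 302 without mutant replicate 2, and 6 and 3 without wild-type replicate 2. Of the 241 rises 21 were in the first group, and of the 97 falls 4 were in the second. The rises and falls were called on wild-type libraries that also enter this test, so such an overlap is partly built in. Socs36E changed by 1.99 in wild-type cells and by 0.65 in mutant cells, a difference of 1.34 ± 0.19 (edgeR adjusted p = 7.49e-04). In mutant cells its level, scaled over all 8 libraries, was 39.8 and 98.0 CPM with upd and 32.4 and 49.9 CPM in control media, and this smaller rise passed as well (edgeR adjusted p = 0.0079). Vrp1 differed by 1.44 ± 0.15 and CG15097 by 2.23 ± 0.37. CG15673 had a log2 change of 3.37 in wild-type cells in this fit and of 0.04 in mutant cells.

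Other wild-type rises with a difference that passed were CG32700, mgl, Pino, CG32512, Ptpmeg2, loco, foi, cher, ex and ush among the genes named above, with differences between 0.75 and 1.09. The falls with such a difference were TP53INP, PRAS40, Sesn and CG15478, with differences between -0.74 and -0.96, and the fall of CG15478 itself did not pass in the 8-library fit. For TP53INP the change was -0.92 in wild-type cells and 0.03 in mutant cells. Without the replicate block the interaction test called 0 genes, with 88 at an unadjusted p under 0.05.

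With all 8 libraries, the difference between lines did not pass for most genes of the response. The 241 wild-type rises had a median change of 0.23 in mutant cells, 194 of them were above 0 there, against 49.3% of all tested genes, and 58 were called as rises in mutant cells, where 3.85% of all tested genes were. The 97 falls had a median of -0.15 in mutant cells, 26 of them were above 0 and 15 were called as falls, where 1.9% of all tested genes were. No library is shared between these 2 responses. The shares over all tested genes were not adjusted for depth. Of the 241 rises, 138 lay in the highest of the 4 groups by counts. In mutant cells Myc, ImpL2, scyl and Tep2, for example, had log2 changes of 0.90, 0.83, 0.80 and 1.06, and their differences between lines did not pass. A difference that did not pass does not show that the lines responded alike.

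**Figure D5:**
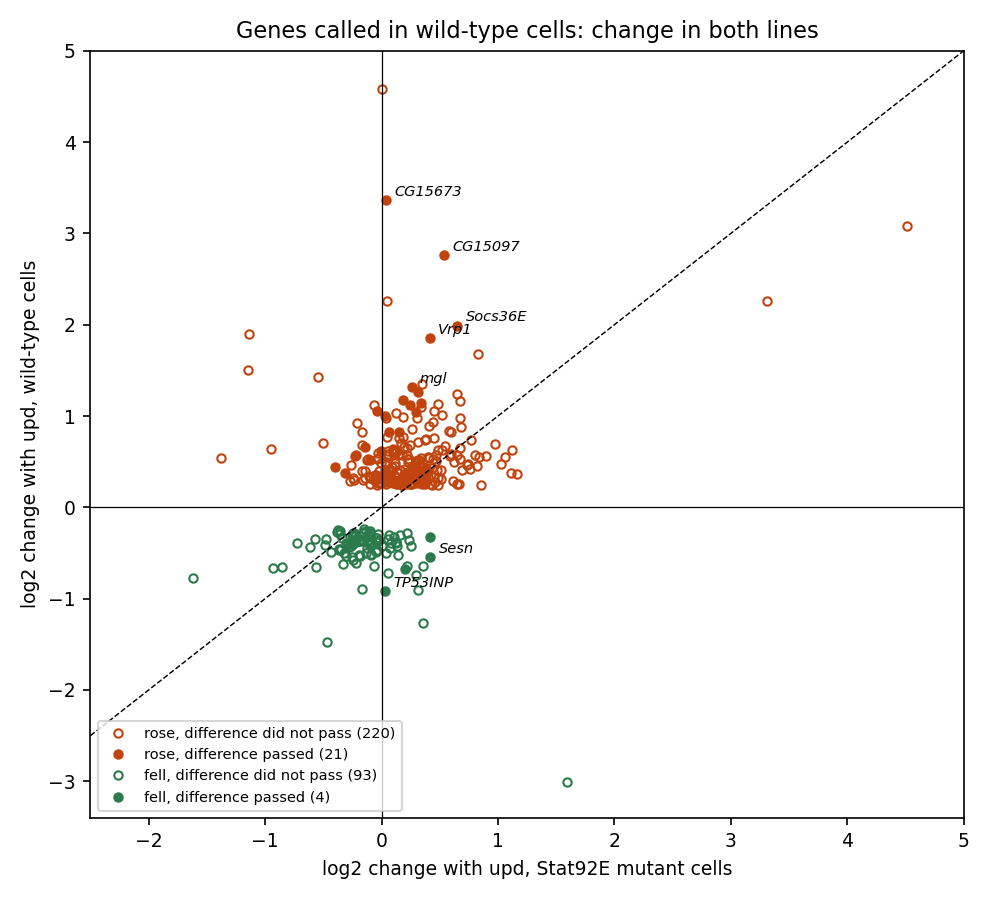
Log2 change with upd in wild-type cells (y axis) against Stat92E mutant cells (x axis), both from the 8-library fit, for the 241 genes that rose (orange) and the 97 that fell (green) in wild-type cells. Filled points are the 21 rises and 4 falls whose difference between lines passed the interaction test, and the dashed line marks equal changes. The genes were called on wild-type libraries that also enter that test.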

How the data were processed

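Polyadenylated RNA was extracted with Trizol and made into libraries on an Apollo instrument with the Wafergen PrepX kit, per the labels' protocols. The submitters' processing notes name Trimmomatic 0.36, STAR 2.5.2b and the dm6 assembly. The read counter, its annotation and its strand setting were not given in the sources used here, so reads of overlapping and antisense genes cannot be told apart. The deposited tables hold a raw count and an RPKM value per gene, and the authors' RPKM is the count over gene length and over a read total of which the genes' counts are 85.22% to 90.61%. An Ensembl annotation of dm6 gave symbols for 13852 of 13932 genes and left 80 without one.

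Tests were made on the deposited counts with edgeR 4.0.16 in R 4.3.3 (TMM scaling, filterByExpr, quasi-likelihood, two-sided, Benjamini-Hochberg adjustment over all genes tested, threshold 0.05). The fit of the 4 wild-type libraries had the replicate number as a block, because replicate 1 was shallow and replicate 2 deep, and left 1 residual degree of freedom. The fit of all 8 libraries had the block within each line and left 2. Within each medium the log2 CPM of the 2 replicates correlated with 0.9773 and 0.9772, and within each replicate number those of the 2 media with 0.983 and 0.9915. The labels do not say that a number marks a shared day or batch. Changes within a pair used a prior count of 2 on CPM. Scripts were tested on simulated data. Alternatives were DESeq2 1.42.0, no block, other scaling, filters and priors, thinning of the deep pair and leaving out libraries.

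Named were the 20 largest rises and 12 largest falls that passed with at least 100 counts and 1 direction in both pairs, the JAK/STAT genes, and, of each other list, the members with the lowest p (at most 4). Any other gene in the text was chosen with its values in view. The members and the lists were chosen with earlier results of these data known.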

Additional observations from a re-analysis of the deposited data

Results flagged for a closer look

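The 14 named genes given here drew attention because their log2 change with upd differed between wild-type and Stat92E mutant cells by the test of the difference itself, an interaction term in the 8-library edgeR fit with the replicate block within each line. The difference, wild-type minus mutant cells, was 3.331 for CG15673, 2.23 for CG15097, 1.438 for Vrp1, 1.339 for Socs36E, 1.063 for mgl, 0.9889 for Pino and 0.9495 for CG32512. It was 0.8805 for Ptpmeg2, 0.8394 for cher, 0.8077 for loco, 0.7966 for ex and 0.7532 for foi. It was -0.8773 for PRAS40 and -0.9499 for TP53INP, whose levels fell in wild-type cells. The edgeR adjusted p of these differences lay between 2.02e-05 for Vrp1 and 0.048 for CG32512, and in each gene the wild-type change had 1 direction in both pairs. Without the block none of the 14 differences passed.

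In mutant cells the change was above 0 for 12 of the 14 genes and below 0 for cher (-0.40) and ex (-0.14).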

How the results depend on the processing

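The calls depend on the replicate block. With it, the count of rises was between 224 and 260 and that of falls between 88 and 106 under median-of-ratios scaling, no filter, a stricter filter, a thinned deep pair and a robust prior, beside 241 and 97. With the replicate block in the fit of all 8 libraries there were 99 rises and 12 falls, and with DESeq2 85 and 9. Without a block edgeR called 0 and 0, both with 4 libraries and with 8 (148 at an unadjusted p under 0.05, smallest adjusted p 0.0693). Leaving out libraries gave 0 to 54 rises and 0 to 4 falls: without replicate 1, 54 and 2, and without replicate 2, 21 and 4, with the spread then taken from the mutant libraries, while leaving out single wild-type libraries without a block gave 0. Same-numbered libraries deviated together from the mean of their medium (correlation 0.5686, the same for both numbers by construction). The number goes with depth here, so this value cannot tell a shared batch from depth, and the labels name no batch. Of the 76 named genes that passed, 38 kept their call in the 8-library fit with the block and 35 with DESeq2. For the difference between lines, 23 larger and 10 smaller became 0 and 0 without the block and 18 and 4 with DESeq2. Leaving out pairs gave 6 to 265 larger and 3 to 302 smaller, the highest without mutant replicate 2. The sign of some log2 changes turned when a library was left out, with lowest and highest values of -0.038 and 0.46 for ken, -0.11 and 0.31 for apt, -0.14 and 0.30 for Stam, -0.33 and 0.17 for hop, -0.036 and 0.28 for dome, -0.32 and 0.77 for upd3, -0.30 and 0.38 for et, -0.87 and 2.88 for Hsp23, -0.20 and 1.63 for Hsp26, -0.37 and 1.43 for aos, -0.093 and 1.06 for sty, -0.36 and 0.80 for Socs16D, -0.083 and 0.35 for Hrs, -1.04 and 0.046 for ohgt, -0.15 and 0.31 for chinmo, -0.15 and 1.35 for Myc, -0.14 and 0.019 for Su(var)2-10, -0.25 and 0.91 for mt:ND6, -0.36 and 2.13e-04 for Tep4 and -0.11 and 2.51 for Pvf3. The cause of these turns was not tested. Leaving out 1 library of a pair sets a shallow against a deep library by construction. The planned search of promoters for STAT92E motifs was not run.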

Other observations

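Some rises belong to groups that no list above covers. The genes below were chosen after their values were seen, and no group of them was tested. Transporters of small molecules included the amino acid transporter gene path, with 111 and 115.3 CPM with upd and 68.1 and 61.1 CPM in control media, a log2 change of 0.82 ± 0.09. CD98hc, the heavy chain of heteromeric amino acid transporters, had 362 and 485 CPM with upd and 200 and 281 CPM in control media (0.82 ± 0.08). The anion exchanger gene Ae2 rose by 0.83 and the organic cation transporter gene Orct2 by 0.52. In all 4 genes the upd libraries lay above the control libraries, and all 4 passed in the 8-library edgeR fit and with DESeq2.

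Genes of adhesion and cell shape outside the actin list rose too: the kinase gene Abl (0.57), the paxillin gene Pax (0.57), the WASp family gene Whamy (0.75), Swip-1 (0.56) and the Arf exchange factor gene Efa6 (0.51). These 5 passed in both further fits. Exons of Swip-1 overlap CG10431 on the opposite strand over 36.0% of their length. Those of Abl overlap an annotated transposable element on the opposite strand over 41.1%. The gene neur, whose product is a ubiquitin ligase acting on Notch ligands, rose by 0.77, and an antisense gene lies opposite 38.8% of its exon length. Among transcriptional regulators, the repressor gene hry rose by 0.75, mam by 0.63 and the zinc-finger genes chn and Kah by 0.73 and 1.04. The repressor gene hry had 179 and 174 CPM with upd and 110 and 101 CPM in control media. The clock genes vri and cwo rose by 0.46 and 0.47. In glycolysis, Hex-A rose by 0.43, Pgk by 0.26 without passing in the 8-library fit, and Gapdh2 fell by 0.41.

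The largest fitted changes of all belonged to genes with fewer than 100 counts. The gene cDIP had 9 and 23 counts with upd and 1 and 0 counts in control media. Gr97a, named as a gustatory receptor gene, had 5 and 34 counts with upd and 1 and 3 counts in control media. CG18368 had 4 and 0 counts with upd and 13 and 19 counts in control media. None of the 3 passed in the 8-library fit. The 5 falls on chromosome 4 were CG33941, 4E-T, PMCA, Taf3 and Zyx, with log2 changes between -0.47 and -0.30, and CG33941 alone passed in the 8-library fit. Genes on the opposite strand overlap the exons of CG33941 over 42.9% of their length and those of PMCA over 40.5%.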
